A study of Homo sapiens with 4 samples.

Results

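Mitochondrial ribosomal proteins, encoded in the nucleus by the MRPL and MRPS genes, were followed in a human lung cancer cell line after knockdown of a long non-coding RNA. The members were all gene symbols of the deposited count table made of MRPL or MRPS, digits and at most 1 letter from A to C, without pseudogenes, which gave 76 of 40205 symbols. The rule reads names and no measured value, although the gene family was picked with earlier results of these data known. The cells were A549, an established line from a human lung adenocarcinoma, harvested 24 hours after siRNA transfection and sequenced as RNA on the Ion Proton. In the control group (NC), 2 libraries had received a negative control siRNA. In the other group, 2 libraries named Knockdown-670 and Knockdown-732 had received siRNA against SBF2-AS1, a long non-coding RNA transcribed antisense to SBF2. All 4 were transfected with the same lipid reagent, and the labels do not say what the numbers in Knockdown-670 and Knockdown-732 stand for. Whether the 2 libraries of a group are separate cultures is not stated. The p-values therefore cover only the spread between these libraries, and that may be technical.

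Mitochondria keep a small genome of their own and translate its few messenger RNAs on a dedicated ribosome, the mitoribosome. All of its proteins are made from nuclear genes in the cytosol and imported, and they assemble on ribosomal RNAs that the mitochondrial genome supplies. Some have a counterpart in the bacterial ribosome and others are found only in mitochondria. The proteins made on this ribosome are membrane subunits of the respiratory chain and of ATP synthase. The small (MRPS) and large (MRPL) subunit proteins themselves belong to mitochondrial translation.

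The libraries held 12149767 to 12938143 counts and 22025 to 22419 genes with a count, and 16120 genes had enough counts to be tested with edgeR's quasi-likelihood test and Benjamini-Hochberg adjustment. SBF2-AS1 was counted 57 and 79 times in the control libraries but 15 and 18 times under the knockdown siRNA, a log2 fold change of -1.94 (SE 0.30, adjusted p = 3.19e-05). Of all genes tested, 22.8% were lower and 23.5% higher at an adjusted p below 0.05. The summed level of 5 epithelial markers was 3918 to 4034 CPM (counts scaled to a common library total) in the controls and 2453 to 2566 CPM in the knockdown. KRT8 and KRT18 carried that sum, while KRT19 went the other way (68.8 and 63.0 against 126 and 136 CPM) and CDH1 overlapped between the groups. Over the same libraries 8 NRF2-driven genes known to be high in A549 had 16288 to 17048 CPM and then 10177 to 10198 CPM, and 7 alveolar type II markers had 76.9 to 80.2 CPM and then 153 CPM in both knockdown libraries, with SFTPB at 0 throughout. ABCA3 alone gave 73.7 and 75.9 against 144.3 and 143.9 CPM of that sum. Markers of other cell types stayed low in every library, at 9.89 to 13.4 CPM for 6 fibroblast markers, 14.5 to 18.3 CPM for 7 immune markers with CD3E and HLA-DRA at 0, at most 0.773 CPM for 4 endothelial markers and at most 0.157 CPM for 4 erythroid markers with HBA2 at 0. The part of these marker shifts in the results below was not tested.

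The mitoribosomal protein genes were lower as a body in the knockdown. All 76 passed the filter on low counts, with 43 to 1642 counts per gene and library. At an adjusted p below 0.05, 40 members fell, or 52.6% beside 22.8% of all genes, and 1 rose, MRPS25, beside 23.5% of all genes. The fold change was negative in 65 of the 76, and its median was -0.27 on the log2 scale (quartiles -0.51 and -0.12) beside -0.002 over all genes tested. The size was modest, since 10 members fell at least 1.5-fold and 2 of those, MRPL47 and MRPS28, at least 2-fold. In bulk RNA, fewer cells of a type and less RNA per cell cannot be told apart.

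The same shift stood in the single libraries. Summed over the 76 members, the normalised level was 3096 and 2974 CPM in the control libraries and 2544 and 2475 CPM in Knockdown-670 and Knockdown-732. From here on CPM is scaled by TMM, a factor that balances library composition. The means were 3035 ± 86.1 and 2510 ± 48.9 CPM (SD, n = 2 each), a change of -17.3%. The groups did not overlap in this sum. Member by member, both knockdown libraries were below both controls for 56 of the 76 (36.2% of all genes) and above both for 3, MRPS2, MRPS25 and MRPL55 (36.4% of all genes). All 40 members that fell were among the 56, and the other 16 did not pass the test. The median member had a log2 ratio to the control mean of -0.25 in Knockdown-670 and -0.31 in Knockdown-732.

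**Figure D1:**
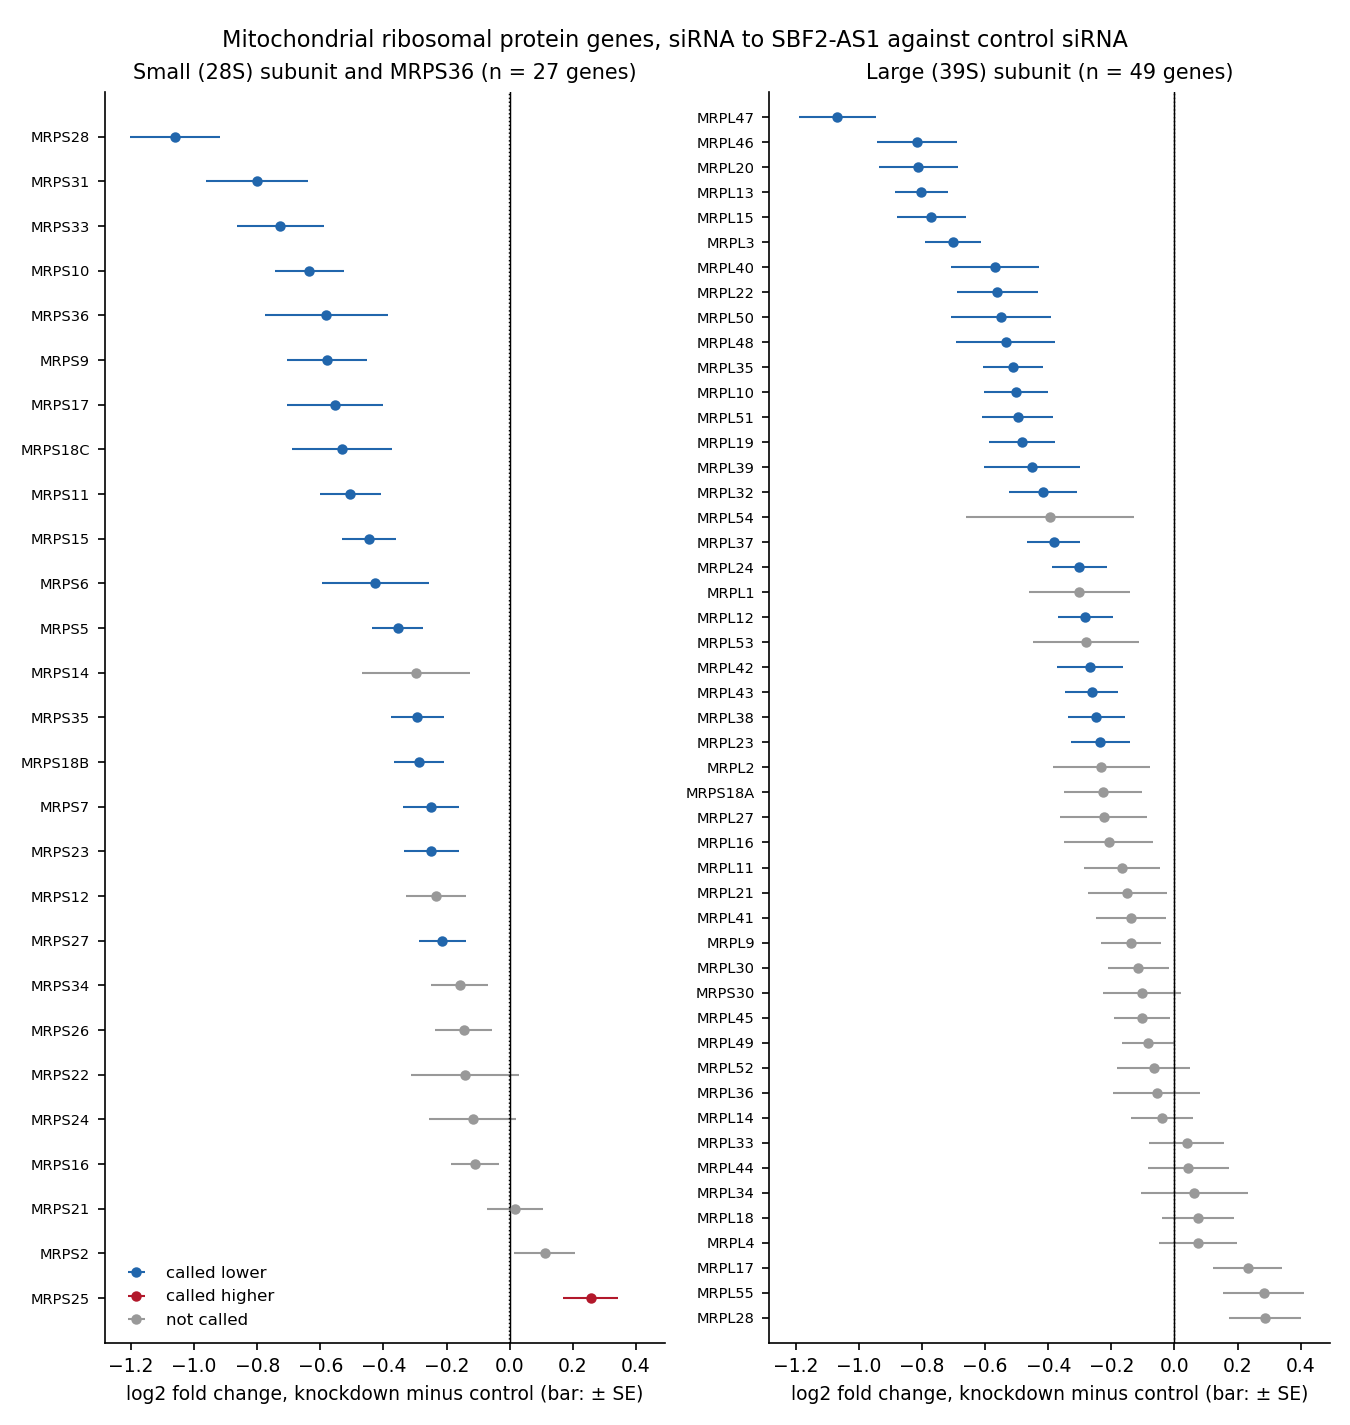
Log2 fold change of each of the 76 members, knockdown minus control (x axis, bars ± SE from the edgeR fit), with the small subunit and MRPS36 on the left and the large subunit on the right. Blue points fell, the red point (MRPS25) rose and grey points did not pass an adjusted p of 0.05. The points run from -1.06 (MRPS28) to 0.26 (MRPS25) on the left and from -1.07 (MRPL47) to 0.29 (MRPL28) on the right, with 65 of 76 below 0.

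Promoters are shown here as a description of the gene family, and a link to the fall was not tested. The RefSeq table of promoter windows (GRCh38.p14, 250 bases before to 50 after each start) held 67 of the 76 members. The ETS family core CCGGAAG, on either strand, is the letter pattern read by factors such as GABP, a known regulator of nuclear genes for mitochondria. It stood in 28 of the 67 windows (41.8%), beside 10.7% of all 27305 windows and 18.5% of the 10176 windows of genes tested here. MRPL46 (-0.82) and MRPS9 (-0.58), also among the large falls, had a window without the core. The members to print were picked for carrying it. Their 100 bases before the start are printed 5′ to 3′ on the gene's strand, with the core in capitals. Shown are 5 members with a large fall, and MRPS26 and MRPS21, which did not pass the test.
MRPL47, chr3:179604639-179604738, minus strand: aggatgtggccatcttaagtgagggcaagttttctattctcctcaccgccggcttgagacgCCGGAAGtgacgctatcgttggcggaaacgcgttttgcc
MRPL20, chr1:1407294-1407393, minus strand: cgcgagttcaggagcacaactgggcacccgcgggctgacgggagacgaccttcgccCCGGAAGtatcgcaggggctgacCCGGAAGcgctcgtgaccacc
MRPS31, chr13:40771191-40771290, minus strand: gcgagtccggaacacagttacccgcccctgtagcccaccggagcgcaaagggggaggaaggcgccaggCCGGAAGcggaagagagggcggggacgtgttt
MRPL3, chr3:131502972-131503071, minus strand: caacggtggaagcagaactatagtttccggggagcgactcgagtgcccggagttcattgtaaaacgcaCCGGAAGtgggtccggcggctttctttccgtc
MRPS10, chr6:42217862-42217961, minus strand: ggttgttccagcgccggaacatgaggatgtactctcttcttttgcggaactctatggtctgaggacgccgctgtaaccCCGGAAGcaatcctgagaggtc
MRPS26, chr20:3045952-3046051, plus strand: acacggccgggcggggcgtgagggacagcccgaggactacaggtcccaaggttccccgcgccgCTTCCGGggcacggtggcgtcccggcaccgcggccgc
MRPS21, chr1:150293761-150293860, plus strand: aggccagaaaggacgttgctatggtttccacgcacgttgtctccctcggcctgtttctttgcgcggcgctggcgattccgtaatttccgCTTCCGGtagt

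In these stretches MRPL20 carries the core at 2 places and the others at 1, and in MRPS26 and MRPS21 it reads on the opposite strand. No test compared members with and without the core. The median fold change was -0.25 on the log2 scale for the 28 with the core, of which 13 fell, and -0.27 for the 39 without, of which 20 fell. The YY1 pattern (11 bases that include ATGGCGG) stood in 10 members (14.9%), beside 0.916% of all windows and 1.95% of those of tested genes. For 9 of these 10 the match lay after the start. The NRF1 pattern (10 bases, 1 of them free) stood in 7 members (10.4%), beside 6.28% of all windows and 11.4% of those of tested genes. For the GC box GGGCGG the share was 61.2%, beside 44.6% and 69.7%, and for the CCAAT box 29.9%, beside 35.7% and 36.3%. The TATA box TATAAA was in 2 members (2.99%), beside 11.95% and 5.56%. Every pattern was searched on both strands and their matches may overlap. A match is a run of letters and not a measured binding site.

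Among the small-subunit proteins, 16 of 26 fell and 1 rose, with a median log2 fold change of -0.29. MRPS28 had the largest fall among them. It had 19.8 and 21.5 CPM in the controls and 9.34 and 10.4 CPM in Knockdown-670 and Knockdown-732. The groups were far apart, and the log2 fold change was -1.06 (SE 0.14, adjusted p = 6.88e-06). MRPS31, a protein of the small subunit's head found only in mitochondria, had 23.4 and 18.9 CPM against 14.0 and 10.3 CPM. Its groups did not overlap, although both pairs were spread, and the log2 fold change was -0.80 (SE 0.16, adjusted p = 0.000557). For MRPS33, also specific to mitochondria, the values were 45.2 and 33.5 CPM against 25.5 and 22.1 CPM. The first control library was the higher one, and the fold change was -0.73 on the log2 scale (SE 0.14, adjusted p = 0.000479).

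Small-subunit proteins with a bacterial counterpart moved likewise. MRPS10, counterpart of bacterial S10 in the head of the subunit, had 34.4 and 34.0 CPM in the controls and 22.08 and 21.98 CPM in the knockdown. These 2 pairs were the tightest among the large falls, with SDs of 0.279 and 0.0662 CPM (n = 2 each), and the log2 fold change was -0.63 (SE 0.11, adjusted p = 0.000118). MRPS9, counterpart of S9, whose tail reaches the transfer RNA in the P site, had 30.7 and 25.5 CPM against 19.0 and 18.6 CPM. Its groups did not overlap, and the log2 fold change was -0.58 (SE 0.13, adjusted p = 0.00108). MRPS12, counterpart of the decoding-centre protein S12, sat just outside the threshold, at 44.9 and 44.6 CPM against 35.9 and 40.2 CPM and an adjusted p of 0.0537. Both of its knockdown values were below both controls.

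MRPS25, a small-subunit protein specific to mitochondria, was the only member called higher. It had 46.4 and 46.0 CPM in the controls and 53.3 and 57.0 CPM in Knockdown-670 and Knockdown-732. The groups did not overlap, and the log2 fold change was 0.26 (SE 0.09, adjusted p = 0.0209). This call was lost in 6 of 13 other analyses, with adjusted p values of 0.0661 without control library 1, 0.0749 without control library 2, 0.18 without Knockdown-732, 0.103 with DESeq2, 0.0812 with scaling by library total and 0.477 against a fold change of 1.2. MRPS36 bears a ribosomal name but is better known as a subunit of the oxoglutarate dehydrogenase complex. It had 10.8 and 9.90 CPM against 5.43 and 8.35 CPM, a log2 fold change of -0.58 (SE 0.19, adjusted p = 0.0205). Knockdown-670 was well below Knockdown-732 for this gene, and MRPS36 kept its call in 8 of 13 other analyses. It was not called without control library 1, without Knockdown-670, in the test for changes beyond 1.2-fold, with DESeq2 (adjusted p = 0.107) or with the offset for GC content and length described below (log2 -0.15, adjusted p = 0.534).

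**Figure D2:**
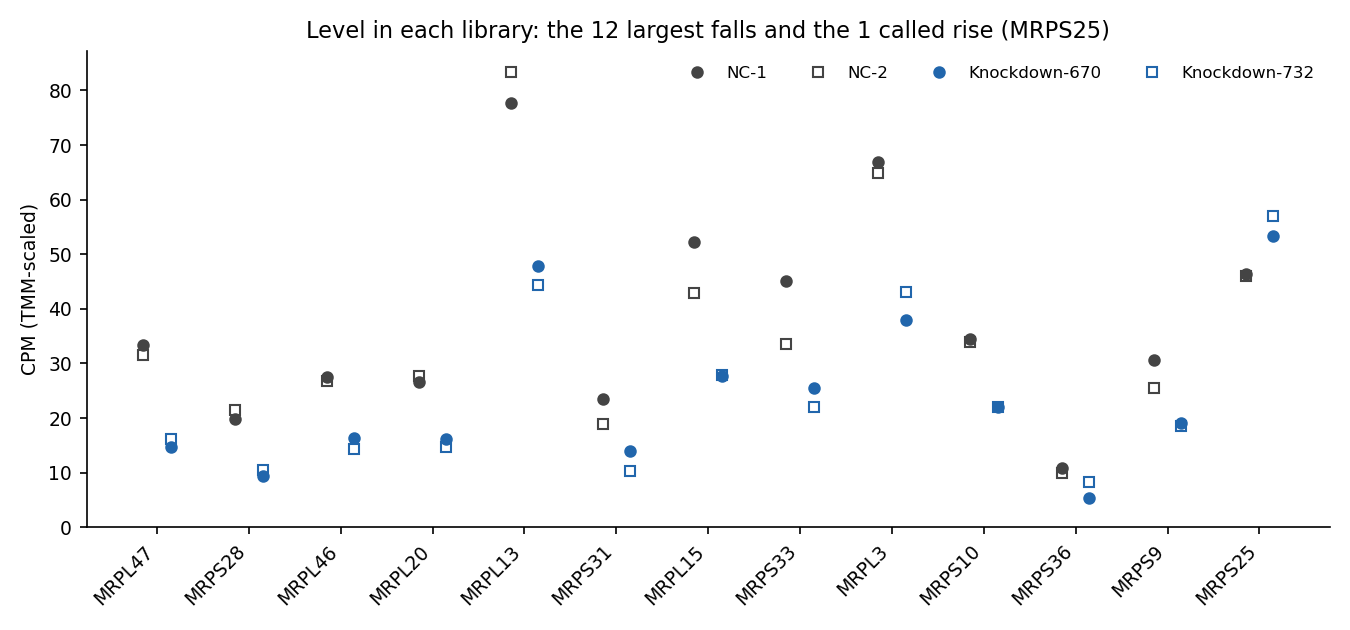
TMM-scaled CPM (y axis) in each of the 4 libraries for the 12 members with the largest falls and for MRPS25 (x axis), with controls in grey and knockdown in blue. For each of the 12, both blue symbols lie under both grey ones. For MRPS25 the order is reversed, at 53.3 and 57.0 CPM over 46.4 and 46.0 CPM.

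Of the 49 large-subunit proteins, which include MRPS30 and MRPS18A, 23 fell and 0 rose by edgeR, with a median log2 fold change of -0.25. At an unadjusted p below 0.05, 3 were higher, MRPL28, MRPL55 and MRPL17, and DESeq2 called 0 higher. Without control library 1 the count was 15 lower and 2 higher. MRPL47, counterpart of bacterial L29 beside the exit of the peptide tunnel, had the largest fold change of all 76 without a correction for GC content and length. It had 33.3 and 31.6 CPM in the controls and 14.7 and 16.2 CPM in Knockdown-670 and Knockdown-732. Both knockdown libraries lay far under the controls, with a log2 fold change of -1.07 (SE 0.12, adjusted p = 1.05e-06). MRPL13, counterpart of L13, an early-binding protein, was abundant as well as lower. Its values were 77.6 and 83.4 CPM against 47.9 and 44.4 CPM. The gap was wide beside the spread within the pairs, and this was the member with the smallest adjusted p (log2 fold change -0.80, SE 0.08, adjusted p = 3.56e-07).

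MRPL20, counterpart of L20, which is needed to build the large subunit in bacteria, had 26.5 and 27.7 CPM in the controls against 16.2 and 14.7 CPM. The groups stood apart, with a log2 fold change of -0.81 (SE 0.13, adjusted p = 3.58e-05). MRPL46 belongs to the proteins found only in mitochondria and had 27.4 and 26.8 CPM against 16.4 and 14.4 CPM. It fell by a like amount, -0.82 on the log2 scale (SE 0.13, adjusted p = 3.71e-05). MRPL15, counterpart of L15, had 52.2 and 42.9 CPM against 27.77 and 27.97 CPM. The 2 knockdown libraries gave nearly the same value, and the log2 fold change was -0.77 (SE 0.11, adjusted p = 1.29e-05). MRPL3, counterpart of L3, which reaches towards the peptidyl transferase centre, had 66.9 and 64.8 CPM against 37.9 and 43.0 CPM. It fell by 0.70 on the log2 scale (SE 0.09, adjusted p = 4.12e-06). The counts of MRPL3, MRPS31, MRPL45 and MRPS36 are uncertain to the extent that reads could be shared with pseudogene copies. MRPL3P1, at 85 and 78 counts in control against 34 and 48 in knockdown libraries, was called lower itself (log2 fold change -0.90), as was MRPS31P4 (-0.82). MRPS31P5 (-0.63), MRPS31P2 (-0.13), MRPL45P2 (-0.31) and MRPS36P1 (0.14) did not pass the test. The counts of MRPS36P1 came to 25.9% of those of MRPS36.

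The remaining 28 members that fell had log2 fold changes between -0.57 (MRPL40) and -0.21 (MRPS27). The threshold fell between MRPL23, a tunnel-exit protein (adjusted p = 0.0476, a call kept in 6 of 13 other analyses), and MRPS12. The members named here at 2 functional sites of the large subunit were chosen after their values were seen. Not every member at these sites is named. Those named all had negative fold changes, and differences among them were not tested. Members with a positive fold change, such as MRPL17 (0.23), are not among them, whatever their site. Neither site is therefore shown to move as a whole. In the stalk, which receives the translation factors, MRPL10 fell (-0.50, adjusted p = 0.00114) and MRPL12 fell (-0.28, adjusted p = 0.0124), and MRPL11 at the stalk base had -0.17 (adjusted p = 0.272). Around the tunnel exit MRPL22 (-0.56), MRPL24 (-0.30) and MRPL23 (-0.23) fell, and MRPL45, which ties the ribosome to the inner membrane, had -0.10 (adjusted p = 0.366). MRPL27, counterpart of L27 at the P site, had -0.22 (adjusted p = 0.199).

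Members that did not pass the test numbered 35, and 25 of them had a negative and 10 a positive fold change. The most positive were MRPL28 (35.7 and 44.4 CPM against 53.5 and 44.4 CPM, log2 0.29, adjusted p = 0.054), MRPL55 (29.1 and 21.9 against 30.7 and 31.4 CPM, log2 0.28, adjusted p = 0.0807) and MRPL17 (46.5 and 37.0 against 51.9 and 46.1 CPM, log2 0.23, adjusted p = 0.0927). The libraries of MRPL28 and of MRPL17 overlapped between the groups. A difference of the typical size was within reach of the counts for an abundant member and not for a scarce one, since the SE of the log2 fold change ran from 0.07 to 0.27 over the 76 with a median of 0.11. MRPL54 had the largest SE, at 3.63 and 6.05 CPM against 3.99 and 3.39 CPM. Its fold change of -0.40 on the log2 scale (adjusted p = 0.241) was not distinguishable from the spread at this depth.

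The split by ancestry showed no large contrast. Members with a bacterial homologue gave 23 lower of 46 (median log2 fold change -0.27) and those specific to mitochondria gave 16 lower and 1 higher of 29 (median -0.26), and the difference between these classes was not tested. With DESeq2 the counts were 18 lower of 46 for the bacterial homologues and 8 of 29 for those specific to mitochondria, so the order of the shares turned. Without control library 1 fewer members of each class were called lower. The summed level went from a mean of 1205 to 1003 CPM for the small subunit (-16.8%) and from 1819 to 1500 CPM for the large subunit (-17.6%).

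Levels between members differed far more than the knockdown changed them. Per kilobase of transcript, the control level ran from 3.81 CPM (MRPL50) to 121 CPM (MRPL49), with a median of 34.1. MRPS27, a protein with pentatricopeptide repeats, followed at 88.1 and MRPL23 at 86.1 CPM per kilobase. The length used was the median over a gene's annotated transcripts, so these ranks depend on the annotation. For MRPL49 it was 509.5 bases, while its exons together cover 2149 bases. Without division by length MRPL49 had 61.4 CPM in the controls, and MRPS27 had the highest level of all members, 120.6 CPM. At the low end stood MRPS14 at 4.73 and MRPL54 at 7.73 CPM per kilobase. MRPS27 (-0.21, adjusted p = 0.0249) and MRPL50 (-0.55, adjusted p = 0.00828) fell, but neither was called with DESeq2 (adjusted p = 0.0822 and 0.0702) or with offsets for GC content and length (log2 -0.046 and -0.12, adjusted p = 0.629 and 0.586). MRPS27 was also not called without control library 2 or without Knockdown-732, and MRPL50 without control library 1. MRPL49 had -0.08 (adjusted p = 0.444) and MRPS14 -0.30 (adjusted p = 0.17). Across the 76 genes the control level and the log2 fold change had r = 0.07 (Spearman 0.06), as a description over genes that share the same 4 libraries.

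GC content moved with the fold change. Across the 76 members the transcript GC content and the log2 fold change had r = 0.43 (Spearman 0.43), and across the 14711 tested genes with a known sequence r = 0.32 (Spearman 0.37). These points share the libraries. The members that fell had a median GC content of 46.7% and those that did not pass the test 54.0%. In the 38 members at or below 50.3% GC, 26 fell and the median log2 fold change was -0.47, and in the 38 above it 14 fell, 1 rose and the median was -0.22. With an offset fitted to GC content and length over all genes, the median over the 76 stayed at -0.27. Then 34 were lower and 4 higher, beside 23.9% and 21.5% of all genes. The order of the low-GC and high-GC members turned, with medians of -0.20 (15 lower, 3 higher) in the low-GC members and -0.32 (19 lower, 1 higher) in the high-GC members, and r over the members became -0.28. Of the 40 members that fell, 29 were also called lower with the offset. Among the 12 largest falls, 8 shrank more than 1.5 times. With the offset the log2 fold change was -0.63 for MRPL47, -0.47 for MRPL13, -0.39 for MRPS31 (adjusted p = 0.047), -0.45 for MRPS33, -0.47 for MRPL3, -0.36 for MRPS10, -0.39 for MRPS9 and -0.15 for MRPS36. MRPL47 then stood behind MRPS28 (-0.90), MRPL20 (-0.82), MRPL40 (-0.73) and MRPL46 (-0.71), and just behind MRPS11 (-0.628 against -0.626). Of the 40, MRPS35 (0.05) and MRPL42 (0.20) turned positive, and MRPL30 went from -0.11 to 0.29 (adjusted p = 0.00933).

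**Figure D3:**
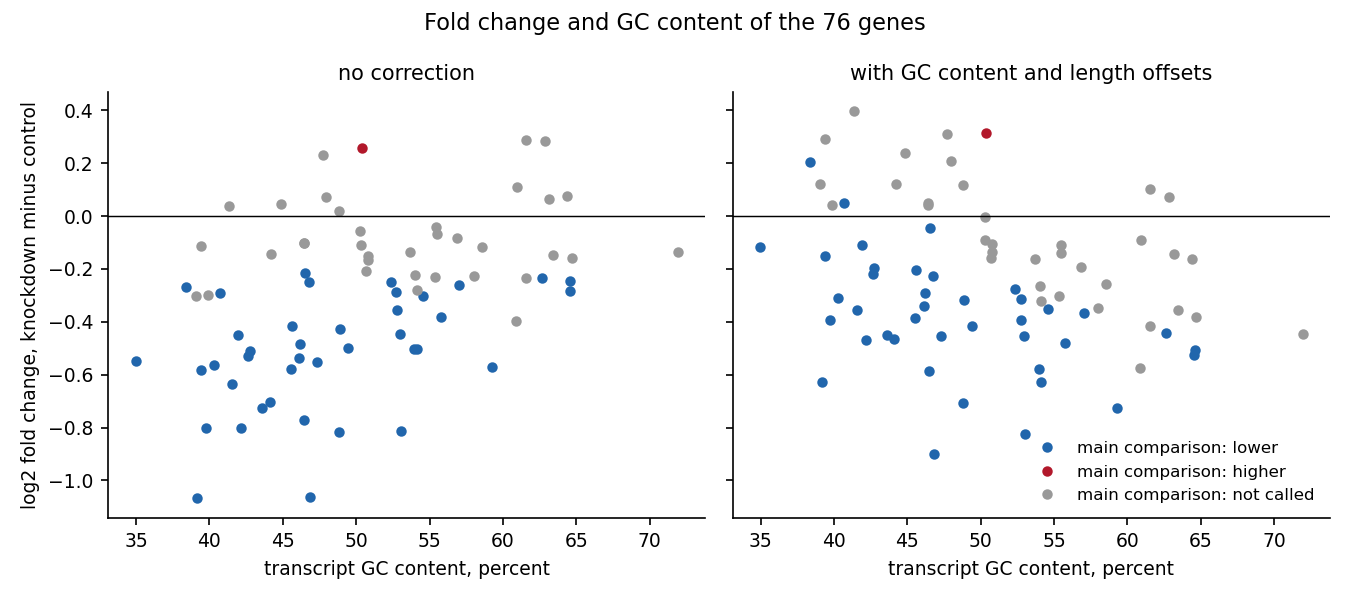
Log2 fold change, knockdown minus control (y axis), against transcript GC content in percent (x axis) for the 76 members, without a correction (left) and with offsets for GC content and length (right). Colours give the call without the correction. On the left the low-GC members lie lower (r = 0.43), and on the right the slope is the other way (r = -0.28) while the median remains -0.27.

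A core of 17 members was called lower in the comparison above and in each of the 13 other analyses listed in the closing section. It comprised 7 small-subunit genes, MRPS9, MRPS10, MRPS11, MRPS15, MRPS28, MRPS31 and MRPS33, and 10 large-subunit genes, MRPL3, MRPL10, MRPL13, MRPL15, MRPL19, MRPL20, MRPL22, MRPL46, MRPL47 and MRPL51. With DESeq2, 26 members were lower and 0 higher, beside 17.1% and 17.9% of all genes. In edgeR's test for changes beyond 1.2-fold, 21 were lower and 0 higher, beside 13.8% and 15.2%.

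Several members start head to head with a neighbour, within 1000 bases and on the opposite strand. This held for 17 members in 16 pairs, and both partners fell in 5 of the pairs. The partner was lower for 6 of the 8 members that fell and for 4 of the 9 that did not pass the test. These counts stand beside 52.6% lower among all members and 22.8% lower among all genes, and no difference was tested. MRPL46 and MRPS11 form a pair with starts 34 bases apart, and both fell (-0.82 and -0.50 on the log2 scale). MRPL47 and NDUFB5, a complex I subunit, start 36 bases apart, and both fell (-1.07 and -0.63). Both partners also fell in the pairs of MRPL13 with MTBP (-1.56), MRPL10 with LRRC46 (-1.03) and MRPL32 with the proteasome subunit PSMA2 (-0.23). In other pairs 1 partner passed the test and the other did not, and the difference was not tested. MRPL50 (-0.55) and MRPS18C (-0.53) fell while ZNF189 (0.21) and HELQ (0.26) did not pass the test. TCP1, EME1, MITD1 and SLC7A7 fell while MRPL18, MRPL27, MRPL30 and MRPL52 did not pass the test, with EME1 at -1.48 beside MRPL27 at -0.22. PNPLA7 (1.01) and EME2 (1.05) rose beside MRPL41 and MRPS34, which did not pass it. In the pairs of MRPL21, MRPL36 and MRPL54 neither partner passed the test. These neighbours were named after their values were seen, and whether the counting used strand is not stated, so overlapping genes cannot be told apart by it. At least 20% of the exonic length was shared with another gene for 14 members. Of these 9 fell, beside 40 of all 76 members, among them MRPL46 (45.3% shared) and MRPS28 (42.0% shared).

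The rest of the mitochondrial translation apparatus was read from lists of known genes, each given by how many passed the test. The shares to read them against are the 22.8% lower and 23.5% higher of all genes. Among mitoribosomal proteins with other symbols, 3 of 7 fell and 0 rose by edgeR (0 higher also at an unadjusted p below 0.05 and with DESeq2, 1 higher with the offset for GC content and length), with a median of -0.31. With scaling by library total 5 were lower. The 3 were ICT1, a peptidyl-tRNA hydrolase built into the large subunit (-0.74), MRP63 (-0.72) and PTCD3 (-0.50). Of 23 mitoribosome assembly factors 8 fell (34.8%) and 0 rose by edgeR (0 higher also at an unadjusted p below 0.05 and with DESeq2), and those of smallest p were the GTPases GTPBP10 (-0.70) and ERAL1 (-0.41), MTERFD1 (-0.59) and the ribosomal RNA methyltransferase NSUN4 (-0.51). Without Knockdown-732 these counts were 9 and 2. Of 17 translation factors 6 fell (35.3%) and 1 rose. The elongation factor GFM1 (-0.61), the cytochrome oxidase translation activator TACO1 (-0.69), the initiation factor MTIF2 (-0.46) and the recycling factor MRRF (-0.59) fell with the smallest p, and OXA1L, an insertase of the inner membrane, was the riser (0.23). That rise was not called without control library 2 or without Knockdown-670.

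The list of aminoacyl-tRNA synthetases of mitochondria, which charge the transfer RNAs, gave 7 lower (31.8%) and 1 higher of 22. It also held QRSL1, PET112 and GATC, which encode subunits of an amidotransferase and not synthetases. Of those named here, QRSL1 (-0.68) and SARS2 (-0.52) fell and CARS2 rose (0.80). The list of mitochondrial transcription and RNA processing was more mixed, with 9 lower (39.1%) and 4 higher (17.4%) of 23. There the poly(A) polymerase MTPAP (-0.85) and the exonuclease REXO2 (-0.58) fell, while the polynucleotide phosphorylase PNPT1 (0.73) and the DNA polymerase POLG (0.35) rose. Nuclear regulators of mitochondrial genes gave 5 lower (41.7%) and 3 higher of 12. The coactivator PPARGC1A (-1.205), the GABP subunit genes GABPB1 (-0.69), GABPA (-0.68) and GABPB2 (-0.67, adjusted p = 0.0447), and YY1 (-0.27) fell. MYC (0.38), ESRRA (0.35) and SP1 (0.19) rose, and NRF1 did not pass the test (-0.25, adjusted p = 0.131). GABPB2, YY1, ESRRA, SP1 and NRF1 were added after their values were seen. Without control library 1 this list had 1 gene higher, and without Knockdown-670 it had 3 lower.

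The partners and products of the mitoribosome were lower in part. RNR2, the ribosomal RNA of the large subunit, had 28174 and 26538 CPM in the controls and 20526 and 20224 CPM in the knockdown. Its groups did not overlap, and it fell by 0.43 on the log2 scale (adjusted p = 0.000121). RNR1, the ribosomal RNA of the small subunit, had 1257 and 1208 CPM against 1410 and 1248 CPM. The groups overlapped (log2 0.11, adjusted p = 0.24). Per kilobase the control level was 17547 CPM for RNR2 and 1292 CPM for RNR1. Whether these counts follow the amount of each ribosomal RNA in the cell was not tested. The offset fitted to GC content and length, knockdown minus control, was -0.29 on the log2 scale for RNR2 and -0.22 for RNR1. Among all 15 mitochondrially encoded genes, 7 fell and 0 rose by edgeR (2 higher at an unadjusted p below 0.05, 0 with DESeq2), with ATP8 (-0.61), COX2 (-0.47), RNR2 and ND3 (-0.37) at the smallest p. With the offset for GC content and length the same list gave 2 lower and 6 higher, and without Knockdown-732 it gave 7 lower and 2 higher. Of 80 nuclear genes of the respiratory chain and ATP synthase 28 fell (35.0%) and 4 rose. Those of smallest p were ATP5B (-1.12), UQCRFS1 (-0.75), ATP5G3 (-0.82) and COX8A (-0.49). The 4 that rose were 2 without control library 1 and 1 without Knockdown-670.

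Cytosolic ribosomal proteins did not share the shift. Of 87 tested, 12 were lower (13.8%) and 16 higher (18.4%), with a median log2 fold change of 0.05, against 40 and 1 of 76 for the mitochondrial ones. The count of cytosolic genes higher depended on single libraries, since it was 7 without Knockdown-670 and 28 without Knockdown-732. RPL39L (-1.03) and RPL7L1 (-0.56) were among those that fell. The contrast between the 2 kinds of ribosome is a description by counts and medians and was not tested.

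**Figure D4:**
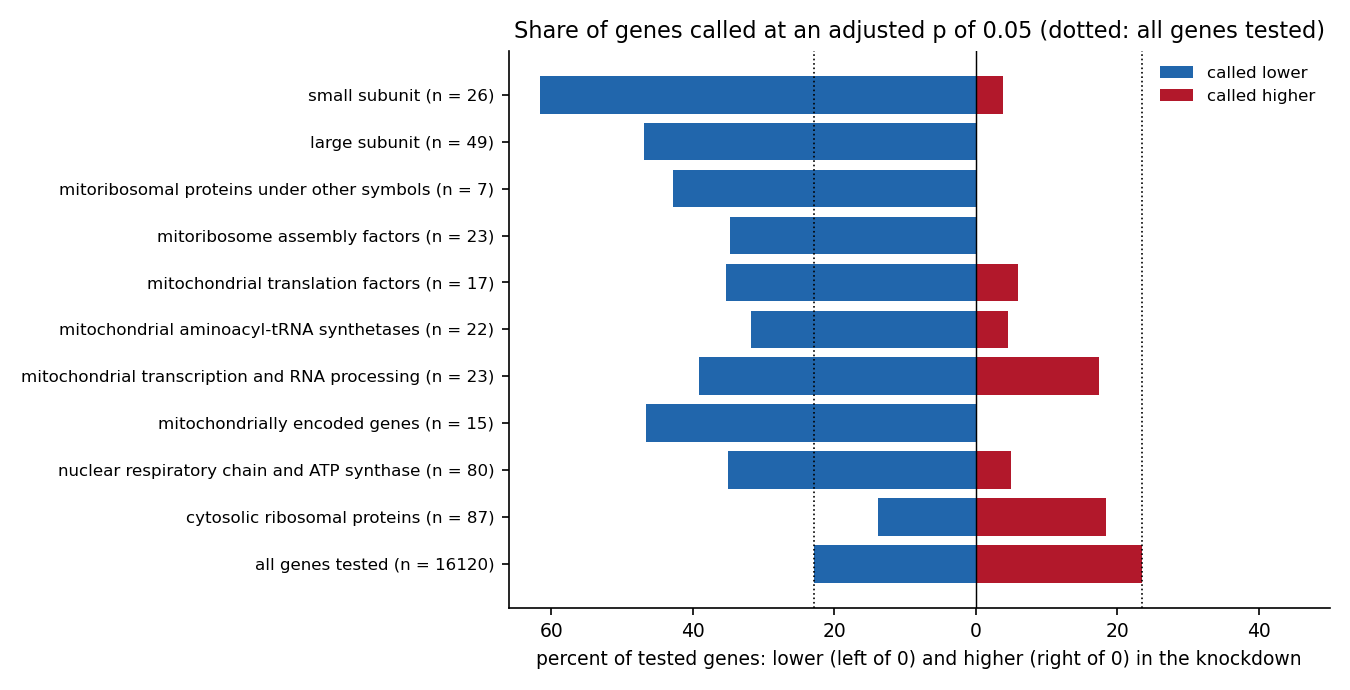
Share of tested genes in percent (x axis) called lower (blue, left of 0) and higher (red, right of 0) for the small and large mitoribosomal subunits, 8 related lists and all 16120 genes tested, whose shares of 22.8% and 23.5% are the dotted lines. The small subunit (16 of 26 lower) and large subunit (23 of 49 lower) have the longest blue bars, and the cytosolic ribosomal proteins (12 of 87) the shortest.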

How the data were processed

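RNA was sequenced from A549 cells in 4 libraries, and the authors deposited a table of raw counts per gene symbol, without normalization. Per the submitters' processing notes the genome build was GRCh37. Not given in the sources used here are the aligner, counter, annotation and strand setting. The members and lists were chosen with earlier results of these data known. The counts were tested in R 4.3.3 with edgeR 4.0.16 (filterByExpr, TMM, robust quasi-likelihood fit of the 2 groups without covariates) over 16120 genes, with Benjamini-Hochberg adjustment at 0.05. CPM values use TMM-scaled library sizes, SDs are over n = 2 libraries, and the biological coefficient of variation was 6.64%. The precision of each value is limited by 2 libraries a group and by 43 to 1642 counts per member and library. The libraries of a group were distinct, with a chi-square per gene of 3.72 for the control pair and 3.42 for the knockdown pair, beside 45.0 to 50.1 between groups. Alternatives were DESeq2 1.42.0, limma 3.58.1 (voom), other scalings and filters, each library left out, a test against a fold of 1.2, and offsets for GC content and length (mgcv 1.9.3). Lengths and GC content came from GENCODE v29 (GRCh38), joined by symbol and known for 91.3% of the tested genes; no coordinate was converted between builds. The fit was tested on simulated data. Named genes are SBF2-AS1, the 12 largest called falls and up to 12 called rises, the 3 highest and 3 lowest levels per kilobase, the members next to the threshold, members called the other way in an alternative, up to 4 called genes of smallest p per related list, RNR1 and RNR2. A few genes that this rule names are not reported here. Other genes named were chosen after their values were seen.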

Additional observations from a re-analysis of the deposited data

How the results depend on the processing

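Across 13 alternatives the median log2 fold change of the members tested was negative each time, and 17 members were lower in all of them. It was -0.33 with scaling by library total, where the median of all genes was -0.06, and -0.32 to -0.24 with each library left out. The count of members lower was 26 with DESeq2 and 21 against a fold change of 1.2, and 27 to 37 with each library left out, lowest without control library 1. The count of members higher was 2 with upper-quartile scaling, 2 without a filter, 2 with a minimum of 5 CPM, 0 with scaling by library total, 0 with DESeq2, 0 against a fold change of 1.2, 4 with offsets for GC content and length, and 1 to 2 with each library left out. Of the related lists, with DESeq2 5 assembly factors, 17 respiratory chain genes and 3 regulators were lower, and with the GC and length offsets 4 transcription and RNA processing genes were lower and 32 cytosolic ribosomal proteins higher. SBF2-AS1 and MRPL54 were not tested under the minimum of 5 CPM, which left 75 members.

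Among single members 19 changed sign somewhere, of which 2 had been called. With offsets for GC content and length the log2 fold changes became 0.12 for MRPL1, 0.29 for MRPL30, -0.15 for MRPL34, -0.16 for MRPL4, 0.20 for MRPL42, 0.048 for MRPL45, 0.042 for MRPS14, -0.090 for MRPS2, 0.12 for MRPS22, 0.043 for MRPS30 and 0.047 for MRPS35. With scaling by library total they became -0.023 for MRPL33, -0.00086 for MRPL34, -0.019 for MRPL44 and -0.045 for MRPS21. With each library left out they ran from -0.35 to 0.032 for MRPS22, -0.17 to 0.33 for MRPL34, -0.074 to 0.20 for MRPL18, -0.35 to 0.070 for MRPL21, -0.031 to 0.059 for MRPS21, -0.057 to 0.14 for MRPL44, -0.72 to 0.015 for MRPL54, -0.36 to 0.044 for MRPL41, -0.27 to 0.12 for MRPL36 and -0.11 to 0.16 for MRPL33. The cause was not tested. No paired analysis was possible because the groups share no replicate number. With a library left out, the lone library of its group is taken to vary like the other group. With 2 libraries a group and an SE of up to 0.27 on the log2 scale, a member that did not pass the test is not shown to be unchanged.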
